A study of Rattus norvegicus with 12 samples.

Results

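The response of microRNAs (miRs) to spared nerve injury (SNI) was set side by side in the L4- and the L3-dorsal root ganglia (DRG) of rats. For every SNI array the response of a miR is its log2(fold change) from the Sham array that shares its level and its number, and it was taken for all 154 miRs analysed. This gave 8 responses from 12 arrays, 4 in L4-DRG and 4 in L3-DRG, with Sural-SNI and Tibial-SNI pooled at each level.

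The arrays were TaqMan miR cards run on total RNA of ipsilateral DRG from adult male Sprague-Dawley rats at Day 23 after surgery. In Sural-SNI the tibial and common peroneal branches of the sciatic nerve were tied and cut and the sural branch was spared. In Tibial-SNI the sural and common peroneal branches were tied and cut and the tibial branch was spared. In Sham rats the nerve was uncovered and left whole. Sham, Sural-SNI and Tibial-SNI each had 2 arrays of L3-DRG and 2 arrays of L4-DRG, numbered 1 and 2. By the study's methods each array held RNA of 1 DRG from the injured side, so numbers 1 and 2 of a level and treatment were different rats. Whether L3 and L4 arrays of a number came from the same rat, and what a number shares across treatments, is not stated in the sources used here. A whole DRG was measured, so fewer cells of a type and less RNA per cell cannot be told apart.

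A miR is a short RNA that binds mRNAs mainly through its seed, bases 2 to 8, and lowers the output of protein from them. DRG hold the cell bodies of sensory neurons with satellite glia, Schwann cells and vessels around them. In the rat the sciatic nerve draws its fibres mainly from L4 and L5, while L3-DRG serves chiefly the femoral nerve and its saphenous branch, which neither surgery cut.

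The sequences of the miRs on which the comparison turned are given first, 5′ to 3′ with the seed in capitals, from RefSeq rat records (GRCr8). The 6 miRs with the smallest p are shown, together with some of their cluster or seed relatives on the card. RefSeq held 23 of the 25 miRs looked up, without miR-30b and miR-30d. Most assays carry mouse names without an arm, and the arm shown is the one that the older name usually stands for.
miR-127-3p: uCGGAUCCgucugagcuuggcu
miR-34a-5p: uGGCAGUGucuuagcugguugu
miR-449a-5p: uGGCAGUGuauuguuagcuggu
miR-183-5p: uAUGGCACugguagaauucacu
miR-182: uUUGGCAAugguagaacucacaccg
miR-376c-3p: aACAUAGAggaaauuucacgu
miR-376a-3p: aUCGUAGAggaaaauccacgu
miR-29c-3p: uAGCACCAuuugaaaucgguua
miR-29a-3p: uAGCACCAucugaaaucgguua
miR-9a-5p: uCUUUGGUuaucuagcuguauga

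miR-34a and miR-449a share their seed, and so do miR-29c and miR-29a, whereas miR-376c and miR-376a have different seeds. miR-127 (chr6:134328510-134328531) lies within the span of Rtl1, the imprinted gene to which it is known to run antisense. miR-376c (chr6:134558256-134558276) and miR-376a (chr6:134559421-134559441) lie on the same chromosome, in the imprinted Dlk1-Dio3 region, and with miR-431, miR-434-3p and miR-379 they and miR-127 span 233.0 kb. miR-34a (chr5:165815971-165815992) lies within the span of the lncRNA LOC103692514. miR-183 (chr4:59756106-59756127) lies 3.9 kb from miR-182. miR-29c (chr13:109099412-109099433) lies within the span of the lncRNA LOC102550527, and miR-9 has 3 loci, on chromosomes 1 and 2.

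For most miRs the response in L4-DRG was below that in L3-DRG. The mean L4 response was below the mean L3 response for 119 of the 154 miRs (77.3%) and above it for 35, with a median difference of −0.43 on the log2 scale. The median response of the 154 miRs was 0.43 and 0.28 in the L3 Sural-SNI arrays and 0.63 and 0.35 in the L3 Tibial-SNI arrays. In L4-DRG it was −0.07 in both Sural-SNI arrays and 0.09 and −0.08 in the Tibial-SNI arrays. The 4 medians of L3-DRG thus lay above 0 and above all 4 medians of L4-DRG, which lay around 0.

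**Figure D1:**
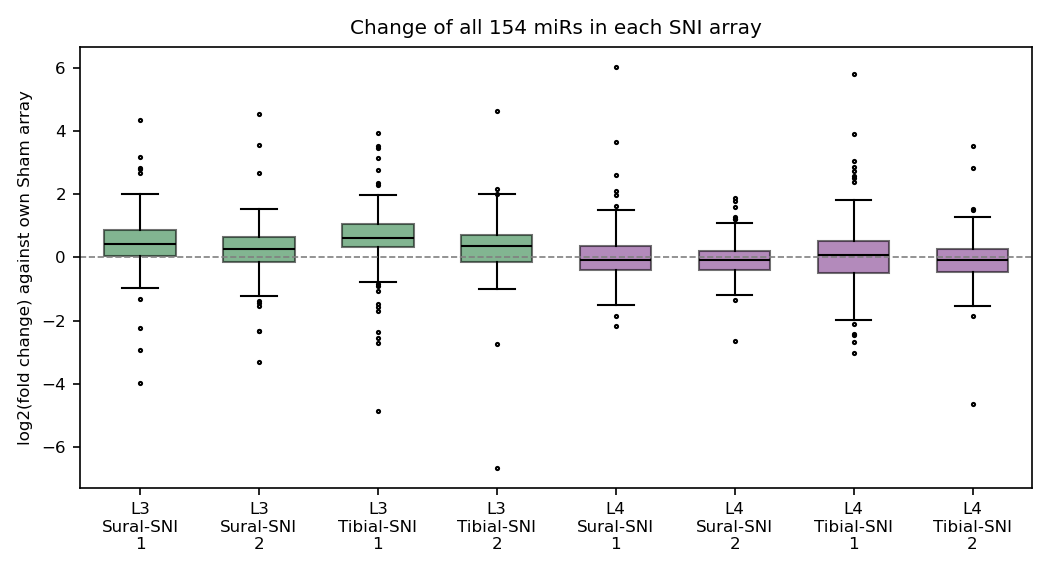
Box plots of log2(fold change) against the own Sham array for all 154 miRs in each of the 8 SNI arrays (box, quartiles; line, median; whiskers, to the farthest value within 1.5 box lengths; dots, values beyond). The medians of the L3-DRG arrays lie between 0.28 and 0.63 and those of the L4-DRG arrays between −0.08 and 0.09.

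The size of this common shift depended on the reference. With each reference assay alone the median difference was −0.58 (MammU6), −0.24 (snoRNA135) and −0.46 (U87). When each array was set to its own mean over all miRs, the median difference was −0.03 and the split was 81 lower to 73 higher. That setting removes the mean shift by construction, so it cannot show whether there is one. Counts given below under it are relative to the mean of all miRs. Before any reference, the difference between the levels in the response of −Ct was −0.18 for MammU6, −0.52 for snoRNA135, −0.30 for U87 and −0.73 for the mean of all miRs. For the 12 lower miRs with the smallest p the difference is therefore also given relative to the median of all miRs.

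Between the levels, 2 miRs differed at an adjusted p under 0.05 (1.3% of 154), miR-127 and miR-34a, by limma with the shared Sham array as a random block. With the 3 references together, both were above Sham in every L3-DRG array and below it in every L4-DRG array. At an unadjusted p under 0.05 there were 24 miRs, all lower in L4-DRG (15.6%), and 0 higher (0%). For 27 miRs all 4 L4 responses lay below all 4 L3 responses (17.5%), and for 0 miRs above them (0%). In 10 miRs (6.49%) all L3 responses were above 0 and all L4 responses below it: miR-127, miR-34a, miR-183, miR-29c, miR-9, miR-218, miR-204, miR-434-3p, miR-744 and miR-30a. The sign of a single response can depend on the reference. In L4 Tibial-SNI 2 the response of −Ct before any reference was 0.28 for MammU6, −1.17 for snoRNA135 and −0.62 for U87. With snoRNA135 alone, miR-127, miR-34a and miR-183 lie above Sham in that array.

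miR-127 is an imprinted miR of the Dlk1-Dio3 region. Its log2(fold change) was 0.85 and 0.67 in the L3 Sural-SNI arrays and 1.10 and 0.70 in the L3 Tibial-SNI arrays. It was −1.06 and −0.55 in the L4 Sural-SNI arrays and −1.16 and −0.59 in the L4 Tibial-SNI arrays. The responses of the levels had opposite signs in all arrays by the 3 references together. At each level those of number 1 were larger in size. The mean was 0.83 ± 0.20 (SD, n = 4) in L3-DRG and −0.84 ± 0.31 (SD, n = 4) in L4-DRG. The difference was −1.67 (SE 0.28, 95% interval −2.30 to −1.04, adjusted p = 0.0201), a 3.18-fold lower response, and −1.24 relative to the median of all miRs.

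miR-34a, a direct transcriptional target of p53, showed the larger difference. Its response was 2.69 and 1.04 in L3 Sural-SNI and 2.29 and 1.08 in L3 Tibial-SNI. In L4-DRG it was −1.50 and −0.95 in Sural-SNI and −1.06 and −0.60 in Tibial-SNI. The lowest L3 response thus lay above the highest L4 response. The L3 responses spread more widely than the L4 responses and were higher in number 1 than in number 2. The mean was 1.77 ± 0.84 (SD, n = 4) in L3-DRG and −1.02 ± 0.37 (SD, n = 4) in L4-DRG, and the difference was −2.80 (SE 0.46, 95% interval −3.86 to −1.74, adjusted p = 0.0201). This is a 6.96-fold lower response, or −2.37 relative to the median of all miRs.

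The levels behind these responses are given as −ΔCt, the mean Ct of the 3 references minus the Ct of the miR, so that a higher value is more miR and 1 unit is a factor of 2. miR-34a in Sham was −6.09 and −2.30 in L3-DRG against −3.61 and −0.80 in L4-DRG, higher in L4-DRG by 1.99 on average. After SNI it was −3.40, −1.26, −3.80 and −1.22 in L3-DRG against −5.11, −1.75, −4.67 and −1.40 in L4-DRG, lower in L4-DRG by 0.81 on average. The order of the levels in Sham was thus reversed after SNI, within each number. miR-127 showed the same reversal. It was at −4.33 and −2.31 in L3 Sham, −3.69 and −1.47 in L4 Sham. After SNI it was at −3.47, −1.65, −3.23 and −1.62 in L3-DRG and −4.76, −2.02, −4.85 and −2.06 in L4-DRG. These orders were also the common ones over all 154 miRs. The mean level in L4-DRG was above that in L3-DRG for 101 in Sham and below it for 101 after SNI.

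**Figure D2:**
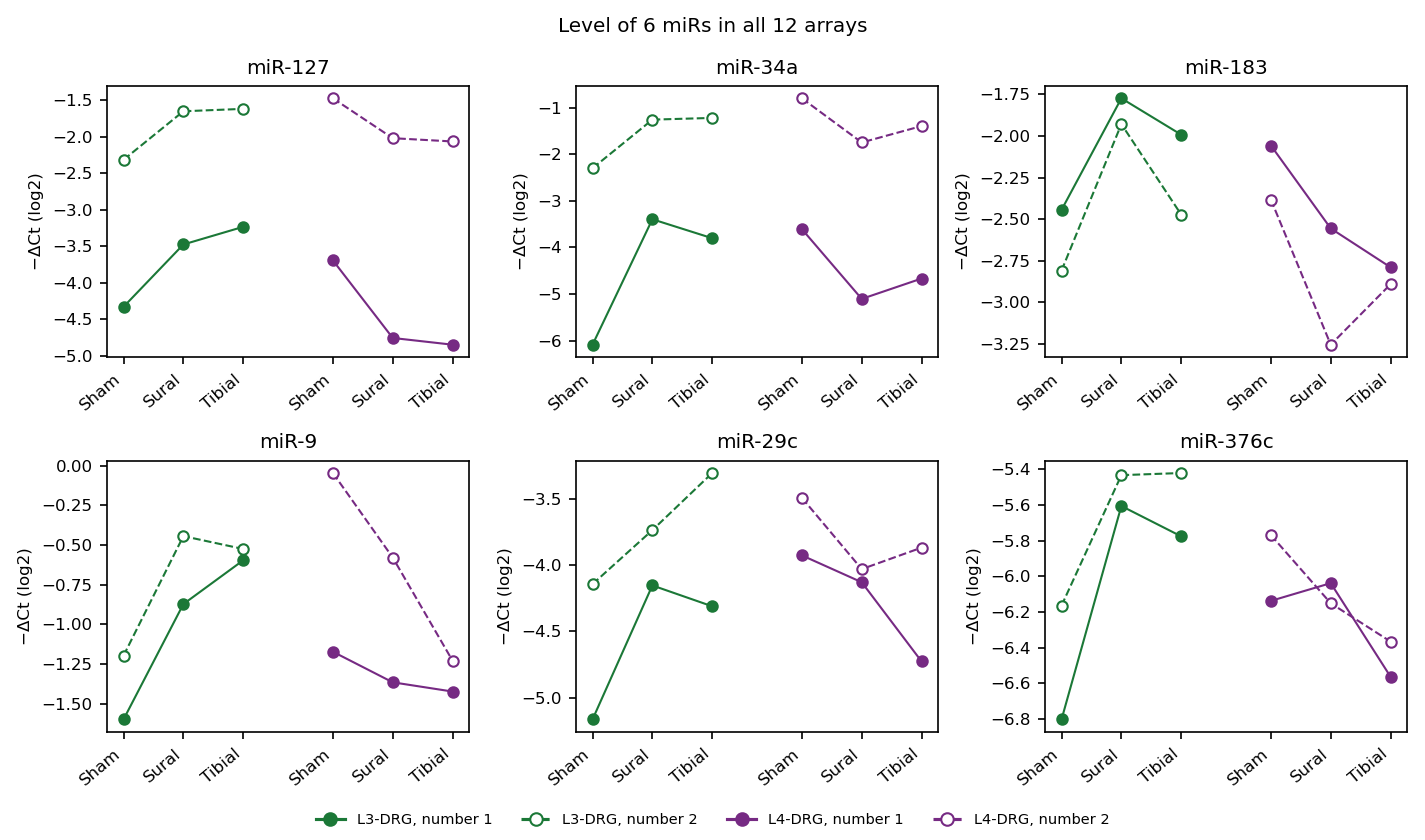
Level (−ΔCt, log2 scale) of 6 miRs in all 12 arrays, by DRG level and treatment, with lines joining the arrays of the same level and number and each panel on its own axis. From Sham to SNI the lines of miR-127 and miR-34a go up in L3-DRG and down in L4-DRG for both numbers, and for these miRs number 2 lies above number 1 throughout.

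The mean raw Ct of an array was 28.9 to 30.5 in number 1 and 27.2 to 28.4 in number 2, so that the arrays of number 2 gave the stronger signal. For both miRs number 2 lay above number 1 at each level and treatment, and the calls depended on subtracting the Sham array of the same number. With the mean of both Sham arrays of a level, limma passed 0 miRs (smallest adjusted p 0.144, 25 at an unadjusted p under 0.05). With the Sham array of the other number it passed 0 as well (smallest adjusted p 0.997, 0 at an unadjusted p under 0.05). In −ΔCt across miRs, L3 and L4 arrays of the same number and treatment deviated together (r from 0.70 to 0.73 over 6 pairs), as did arrays of the same level and number (r from 0.64 to 0.77 over 12 pairs). The responses, after subtraction of Sham, did not, with r from −0.23 to −0.12 between L3 and L4 of the same number and injury (4 pairs). All deviations were taken from the mean of numbers 1 and 2 of a level and treatment. Number 2 therefore mirrors number 1 and repeats its r, so the pairs counted are not all distinct. With the number as a block beside the Sham block, 6 miRs passed at an adjusted p under 0.05: miR-127, miR-34a, miR-183, miR-376c, miR-29c and miR-9.

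The other 4 of those 6 had an adjusted p of 0.0837 without that block. miR-183 is a miR of sensory organs and sensory neurons, transcribed with miR-182. Its response was 0.67, 0.88, 0.45 and 0.34 in L3-DRG and −0.50, −0.87, −0.73 and −0.51 in L4-DRG (Sural-SNI 1 and 2, then Tibial-SNI 1 and 2), a difference of −1.24 (SE 0.29), or −0.81 relative to the median of all miRs. The groups did not overlap, and the −ΔCt levels ran from −3.25 to −1.77 over all 12 arrays. miR-182 differed by −0.43 (SE 0.35) and its groups overlapped.

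miR-9 is a miR of neural progenitors and neurons. In the same order its response was 0.73, 0.75, 1.00 and 0.67 in L3-DRG and −0.19, −0.53, −0.25 and −1.18 in L4-DRG, a difference of −1.33 (SE 0.33), or −0.90 relative to the median. L3-DRG was the more even level, with an SD of 0.15 against 0.45 in L4-DRG (n = 4 each). The miR-29 family is known for targeting collagen mRNAs. miR-29c stood at 1.01, 0.41, 0.85 and 0.84 in L3-DRG and −0.20, −0.54, −0.80 and −0.38 in L4-DRG, a difference of −1.26 (SE 0.30), or −0.83 relative to the median. Its seed relative miR-29a also did not overlap, with a smaller difference of −0.47 (SE 0.25, adjusted p = 0.355).

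miR-376c of the Dlk1-Dio3 region was at 1.20, 0.73, 1.03 and 0.74 in L3-DRG and at 0.10, −0.38, −0.43 and −0.60 in L4-DRG, a difference of −1.25 (SE 0.29), or −0.82 relative to the median. All L3 responses were above 0, while 1 L4 response was too. miR-376a differed by −1.35 (SE 0.39, adjusted p = 0.126; −0.92 relative to the median) and did not overlap either.

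The remaining 5 of the 12 lower miRs with the smallest p were miR-26b, miR-218, miR-331-3p, miR-204 and miR-708. Their differences were −1.22 (SE 0.33), −0.91 (SE 0.26), −0.88 (SE 0.26), −0.91 (SE 0.29) and −1.32 (SE 0.44), with adjusted p from 0.126 to 0.204. Relative to the median of all miRs they were −0.79, −0.48, −0.45, −0.48 and −0.89, so that the common shift made up a large share of miR-218, miR-331-3p and miR-204. All but miR-708 were without overlap. By the RefSeq spans, miR-26b lies in Ctdsp1, miR-218 in Slit2 and in Slit3 (2 loci), miR-331-3p in Vezt, miR-204 in Trpm3 and miR-708 in Tenm4. Across the 12, the mean response was 0.54 to 1.77 in L3-DRG and −1.02 to −0.10 in L4-DRG. The level in L4-DRG minus that in L3-DRG was 0.41 to 1.99 in Sham and −0.93 to −0.13 after SNI. The 12 were chosen on the difference of these values, so this is a description of them only. Over all miRs the median of L4-DRG minus L3-DRG was 0.25 in Sham and −0.16 after SNI.

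**Figure D3:**
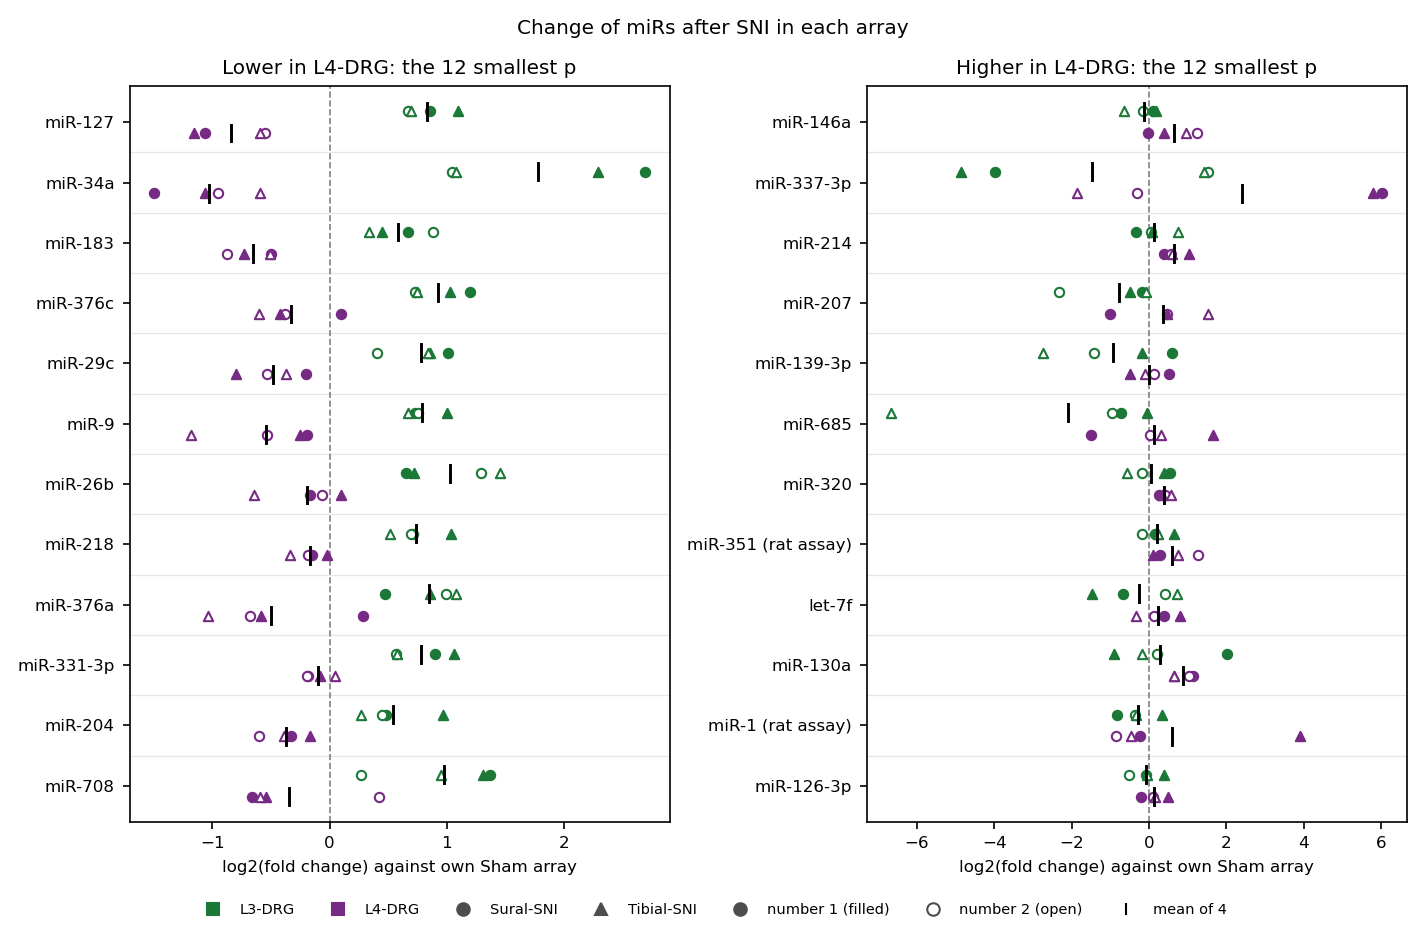
Log2(fold change) against the own Sham array for the 12 miRs lower (left) and the 12 higher (right) in L4-DRG with the smallest p, each with 4 L3-DRG and 4 L4-DRG arrays (circles, Sural-SNI; triangles, Tibial-SNI; filled, number 1; open, number 2; bar, mean of 4). On the left 11 of 12 show no overlap of the levels, on the right 0 of 12, where the axis is also wider.

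Among miRs with a higher response in L4-DRG, limma passed 0, also before adjustment. The smallest p of a higher miR was 0.0793 before adjustment in the limma fit (adjusted p = 0.327), for miR-146a, a miR induced by NF-κB. Its response was 0.11, −0.16, 0.17 and −0.65 in L3-DRG and −0.03, 1.23, 0.38 and 0.96 in L4-DRG, a difference of 0.77 (SE 0.38) with overlap. The other inflammation-linked miR measured, miR-155, differed by −0.38. miR-214, a miR of mesenchymal cells, differed by 0.52 (SE 0.37, adjusted p = 0.535 by limma) with overlap. All 4 of its L4 responses were above 0, from 0.40 to 1.04. The 4 stromal miRs measured (miR-214, miR-199a-3p, miR-29a and miR-29c) were 2 lower and 2 higher. Over the 12 higher miRs with the smallest p the SE ran from 0.33 to 2.29, and 4 of the 12 reached a Ct over 35, near the 40 cycles of the run. Of these 12, 7 were lower in L4-DRG in number 1 or in number 2.

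Each level was also set against its own Sham arrays, in a fit of all 12 arrays with level and number as a block. In L3-DRG 64 miRs were above Sham in all 4 SNI arrays (41.6%) and 3 below in all 4 (1.95%). By limma 30 miRs were higher at an unadjusted p under 0.05 (19.5%), 0 were lower, and 0 passed at an adjusted p under 0.05 (0%, smallest 0.121, miR-34a). In L4-DRG 13 miRs were above Sham in all 4 arrays (8.44%) and 23 below (14.9%). At an unadjusted p under 0.05 there were 6 (3.9%), namely miR-222 and miR-340-5p higher and miR-127, miR-34a, miR-183 and miR-497 lower, and 0 passed at an adjusted p under 0.05 (0%, smallest 0.599, miR-127). The median response was 0.36 in L3-DRG and −0.02 in L4-DRG. These counts and medians depend on the reference as well. Before any reference, the mean L3 response of −Ct was 0.49 for the mean of all miRs. It was 0.03 for MammU6, 0.23 for snoRNA135 and 0.04 for U87. In L4-DRG these values were −0.24, −0.14, −0.29 and −0.27. At each level the 4 responses rest on only 2 Sham arrays. The L3 and L4 responses share no Sham array.

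miR-222, a miR linked to axotomy of sensory neurons, had nearly the same mean response at both levels by the 3 references together. It was 0.44, 0.66, 0.83 and 0.62 in L3-DRG and 0.43, 0.66, 0.58 and 0.67 in L4-DRG. All 8 responses were above 0 and the levels overlapped. The difference was −0.05, with a 95% interval of −0.62 to 0.52, while the median of all miRs was −0.43. Near equality thus depends on the reference. Every difference moves by −0.16 with MammU6 alone, 0.19 with snoRNA135 alone and 0.40 with the mean over all miRs. The other axotomy-linked miR measured, miR-132, differed by −0.47.

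**Figure D4:**
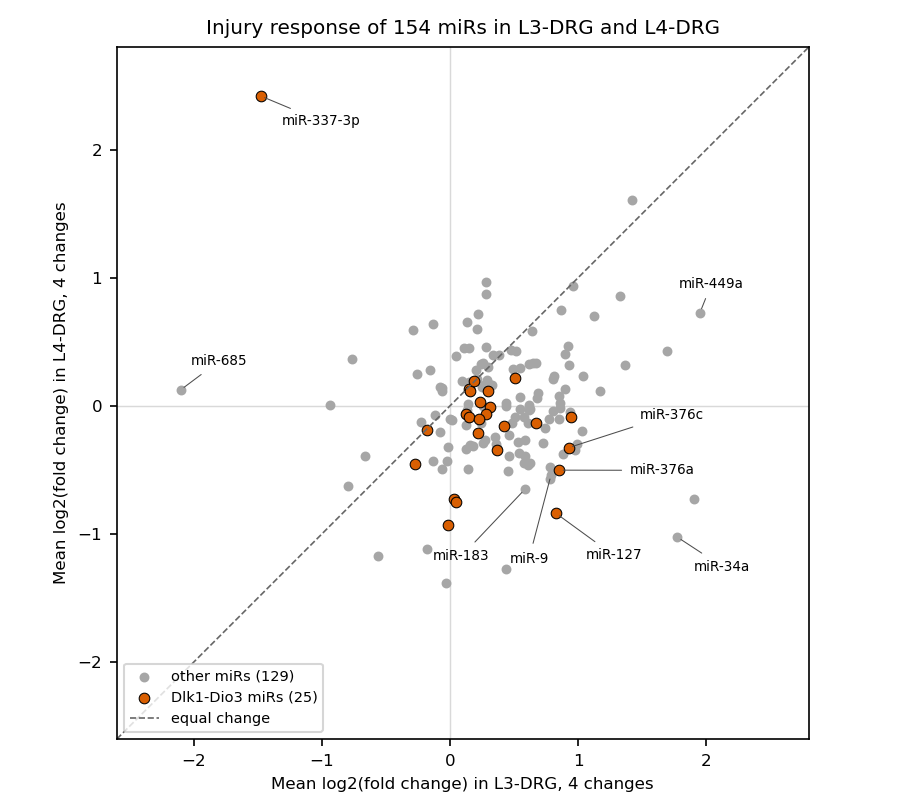
Mean log2(fold change) of the 4 L4-DRG arrays against that of the 4 L3-DRG arrays for 154 miRs, with the 25 miRs of the Dlk1-Dio3 region in orange and equal change as a broken line. Of all miRs 119 lie below the line, and miR-127 and miR-34a lie right of 0 in L3-DRG and under 0 in L4-DRG.

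Of the 25 miRs of the Dlk1-Dio3 region that were measured, 23 were lower in L4-DRG and 2 higher, with a median of −0.32 against −0.43 for all miRs. The count followed the scaling, with 18 lower and 7 higher by snoRNA135 alone and 11 lower and 14 higher when each array was set to its mean over all miRs. At an unadjusted p under 0.05 there were 5 of 25, beside 24 of 154 in all: miR-127, miR-376c, miR-376a, miR-434-3p and miR-379. With miR-431, these 5 were also the members without overlap, 6 of 25 beside 27 of 154. miR-434-3p differed by −0.72 (SE 0.28), miR-379 by −0.58 (SE 0.25) and miR-431 by −1.03 (SE 0.45). Some other members lay near 0, with −0.04 (SE 0.30) for miR-323-3p and −0.02 (SE 0.33) for miR-539. The largest difference in size was that of miR-337-3p, among the 2 higher members, with 3.89 (adjusted p = 0.435 by limma). It was 10.35 within number 1 and −2.56 within number 2, so its sign followed the number.

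In the miR-30 family all 5 members were lower in L4-DRG, with a median of −0.55 against −0.43 for all miRs, and 4 of 5 by snoRNA135 alone and 3 of 5 with each array set to its mean over all miRs. The groups did not overlap for miR-30b (−0.82, SE 0.30), miR-30c (−0.69, SE 0.32) and miR-30a (−0.55, SE 0.27), which is 3 of 5 beside 27 of 154 in all, while miR-30e (−0.26) and miR-30d (−0.13) overlapped. In the miR-34 family miR-449a, with the seed of miR-34a, differed by −1.22 (SE 1.02) and miR-34b-3p by −0.59 (SE 0.41), both with overlap. The miR-449a responses were 1.96, 1.20, 3.48 and 1.16 in L3-DRG and −1.14, 1.88, −0.66 and 2.84 in L4-DRG, so that in L4-DRG they followed the number.

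All 9 miRs of miR-17-92 and its paralogs were lower in L4-DRG (119 of 154 in all), with a median of −0.41 against −0.43 for all miRs and 0 of 9 at an unadjusted p under 0.05 (24 of 154 in all), and 5 of 9 after setting arrays to the mean over all miRs. Of the let-7 family 6 were lower and 3 higher (5 and 4 by the mean over all miRs), with a median of −0.40, also close to that of all miRs. The 3 neural and glial miRs miR-9, miR-129-3p and miR-338-3p were lower under every reference, beside 119 of 154 in all by the 3 references together. Their median was −0.65 against −0.43 for all miRs, and −0.26 with the mean over all miRs. Only miR-9 was at an unadjusted p under 0.05 by limma (24 of 154 in all) and without overlap. The listed miR-124 and miR-219 were not measured. The 9 miRs that the study selected on these same samples for a difference between the injuries, with 10 assays on the card, were 4 lower and 6 higher, with 0 of 10 at an unadjusted p under 0.05 and a median of 0.07, which was −0.09 with MammU6 alone (7 lower, 3 higher), 0.25 with snoRNA135 alone and 0.47 with the mean over all miRs (1 lower, 9 higher with either).

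Because both injuries use the same Sham array of a level and number, the 8 responses hold only 4 independent Sham values. The correlation between responses that share a Sham array was estimated at 0.36 across miRs. In some miRs the responses followed the number. miR-337-3p was at −3.98 and −4.87 in the L3 arrays of number 1 against 1.53 and 1.42 in those of number 2, and at 6.04 and 5.81 in L4 number 1 against −0.31 and −1.86 in number 2. miR-93, named after its values were seen, was at −2.94 and −2.54 in L3 number 1 and at 4.54 and 4.64 in L3 number 2. In both miRs the injuries lay close together and the numbers far apart, with opposite signs. Whether the Sham or the SNI arrays of a number set this was not tested. The Ct of miR-337-3p also went over 35, near the end of the run.

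The comparison was repeated without each Sham array and its 2 responses. The level concerned then keeps 2 responses that share 1 Sham array, so the counts rest on 1 Sham value there. Without L3 Sham 1 the median difference was −0.26 and 2 miRs passed, miR-34a and miR-93 (miR-127, adjusted p = 0.0755). Without L3 Sham 2 it was −0.56 and 9 passed, with miR-127, miR-34a and miR-93 among them. The calls of miR-93 in these 2 settings rest on L3 responses of opposite sign. Without L4 Sham 1 or L4 Sham 2 the median difference was −0.50 and −0.37, and limma passed 0 (smallest adjusted p 0.141 and 0.0675, with 22 and 27 at an unadjusted p under 0.05). The difference of miR-127 ran from −1.94 to −1.40 and that of miR-34a from −3.51 to −2.09 over these 4 settings. miR-183 ran only from −1.27 to −1.20. When the 2 responses that share a Sham array were first averaged, leaving 2 values per level, limma passed 0 (smallest adjusted p 0.390, 18 at an unadjusted p under 0.05).

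**Figure D5:**
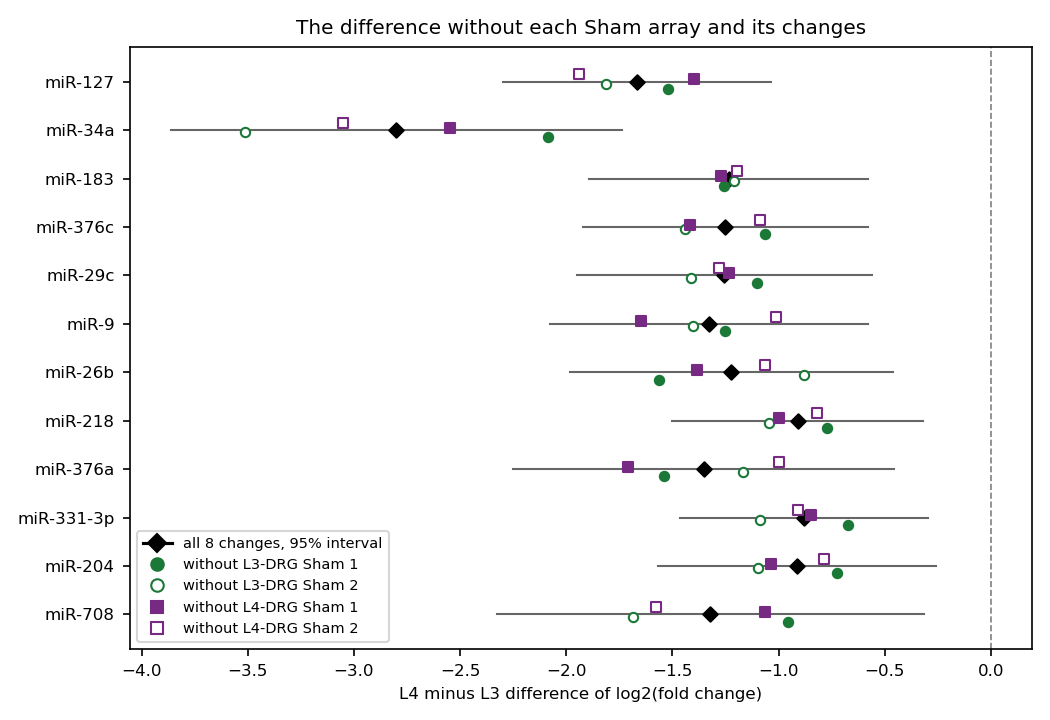
Difference of log2(fold change), L4 minus L3, for the 12 lower miRs with the smallest p: all 8 responses with the 95% interval (diamond), and without each Sham array and its responses (circles and squares). All points lie below 0, and those of miR-34a spread from −3.51 to −2.09.

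Both numbers and both injuries were also taken alone. Within number 1 the median difference was −0.51 with 120 miRs lower, and within number 2 it was −0.31 with 109 lower. Of the 120 miRs lower in number 1, 83 were also lower in number 2 (69.2%), beside 70.8% of all miRs, so that beyond the common shift the signs in the numbers did not go together across miRs. The 12 lower miRs were lower in each number, which their choice on the same 8 responses favours, with −2.09 and −1.25 for miR-127 and −3.77 and −1.83 for miR-34a. With Sural-SNI alone the median was −0.35 and with Tibial-SNI alone −0.47, with limma passing 0 miRs in either (13 and 12 at an unadjusted p under 0.05). These injury values share their Sham arrays. They were also lower with either injury, as the choice favours. miR-127 differed by −1.56 after Sural-SNI and −1.77 after Tibial-SNI, and miR-34a by −3.09 and −2.51.

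The difference between the levels was tested for a dependence on the injury, and 0 miRs passed at an adjusted p under 0.05 by limma (0%, smallest 0.815), with 3 at an unadjusted p under 0.05 (1.95%). These were miR-542-5p (0.91 with Sural-SNI, −1.84 with Tibial-SNI), miR-15b (1.32 and −0.78) and miR-339-5p (0.31 and −2.05). For miR-127 the difference changed by −0.21 (SE 0.39) from Sural-SNI to Tibial-SNI, and for miR-34a by 0.58 (SE 0.63).

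Markers of the cells that a DRG sample can hold were read on the same arrays. Only miRs detected in all 12 arrays were analysed, so the detection of a marker here was fixed in advance. miR-183 and miR-182 of sensory neurons had Ct up to 29.2 and 25.1. Their summed level (log2 of the summed linear levels) was 1.91 to 2.08 in L3 Sham, 1.54 to 2.59 in L3 after SNI, 1.88 to 1.89 in L4 Sham and 1.02 to 1.70 in L4 after SNI. The summed level of the 4 muscle assays (miR-1, miR-133a and miR-133b) was 0.01 to 2.19 in L3 after SNI and −0.17 to 4.41 in L4 after SNI, with the highest value in the L4 Tibial-SNI array of number 1. Without that array the median difference was −0.44 and limma passed 0 miRs (smallest adjusted p 0.0659, 24 at an unadjusted p under 0.05). The 4 leukocyte miRs (miR-142-3p, miR-150, miR-155 and miR-223) were all lower in L4-DRG (3 of 4 by snoRNA135 alone, 2 of 4 by the mean over all miRs), with a median of −0.41 against −0.43 for all miRs and 0 of 4 at an unadjusted p under 0.05. Their summed level was 1.06 to 2.04 in L3 after SNI and 1.25 to 1.86 in L4 after SNI. The listed miR-96, miR-206 and miR-142-5p were not analysed here. What part the markers have in the differences was not tested.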

How the data were processed

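Per the labels and the study's methods, the authors ran TaqMan rodent miR cards for 40 cycles without a Ct limit and deposited the unnormalized Ct values (other unit: PCR cycles) of miRs detected in all 12 arrays. The authors also deposited fold changes, linear ratios against Sham, used only as an alternative. Here −ΔCt was computed against the mean of MammU6, snoRNA135 and U87, and the Sham array of the same level and number was subtracted. This rule gave 98.9% of the deposited ratios within 0.01 on the log2 scale. L4 and L3 responses were compared with limma 3.58.1 in R 4.3.3 (lmFit, eBayes, duplicateCorrelation on the Sham array), two-sided, with Benjamini-Hochberg adjustment over 154 miRs. The fit was tested on simulated data, 20 draws with 30 of 154 miRs changed by 2 on the log2 scale. It recovered 64.3% of them, with 1.35 false calls per draw on average. Noise was drawn independently for each array there. The text names the 12 miRs per direction with the smallest p, those without overlap or with an adjusted p under 0.05, the top miRs against Sham and the members of the lists described. Members and lists were chosen with earlier results of these data known. Figures were drawn with matplotlib 3.10.9. The number of arrays limits the precision. Each SNI array was paired with the Sham array of its number because the methods subtract the corresponding Sham DRG and the deposited ratios follow the number. With the other Sham array only 1.38% of the ratios were within 0.01. Same-numbered arrays also deviated together in −ΔCt (the Sham-subtracted responses did not).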

Additional observations from a re-analysis of the deposited data

Results flagged for a closer look

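Among 48 groups of 4 responses tested for a value far from the others (24 named miRs at 2 levels), 3 held one, where chance alone gives about 1 in 20. miR-708 was at 0.42 in L4 Sural-SNI number 2, while the other 3 L4 responses lay between −0.66 and −0.54. miR-685 was at −6.66 in L3 Tibial-SNI number 2, where its Ct reached 37.5, against −0.97 to −0.04 in the other L3 arrays. The rat assay of miR-1 was at 3.91 in L4 Tibial-SNI number 1, against −0.84 to −0.24 in the other L4 arrays, and the miR-133a and miR-133b assays were also highest there (2.73 and 2.38).

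The injury response differed between the levels by the limma test for miR-127 (−1.67) and miR-34a (−2.80). For miR-183 (−1.24), miR-29c (−1.26), miR-9 (−1.33), miR-218 (−0.91) and miR-204 (−0.91) all 4 L3 responses were above 0 and all 4 L4 responses below it, and the test of the difference did not pass (adjusted p from 0.0837 to 0.170). These signs are by the 3 references together.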

How the results depend on the processing

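The count of 2 miRs moved with the settings: 10 passed with the 8 responses as independent values, 6 with the replicate block of the number as a covariate, 6 with U87 alone, 9 with miRs of a Ct of at most 32, and 16 by the methods' t-test after Benjamini-Hochberg (at its one-tailed threshold of 0.09, 61 lower and 3 higher). It was 0 with averaged responses, the mean of the 2 Sham arrays, the other Sham array, 12 arrays without a block, injury as a covariate (smallest adjusted p 0.0529), either injury alone, MammU6, snoRNA135, snoRNA135 with U87, the mean of all miRs (0.0600) and both exact permutation tests, which cannot go below 0.0286 over 8 responses and 0.333 over 4 Sham arrays. It stayed at 2 with a Ct of at most 35, a variance trend, the deposited ratios and the 12-array fit with the replicate block of level and number. Leaving out 1 array at a time gave 0 to 9. It was 0 without L3 Sural-SNI 1, L4 Sural-SNI 1, L4 Sural-SNI 2, L3 Tibial-SNI 1 or L4 Tibial-SNI 1. The direction of miR-127 held in the 36 settings run for it and that of miR-34a in its 35. Many of these settings change only the test and leave the difference itself as it is. Both miRs were also picked on these same responses for a difference well below 0, so their sign was unlikely to change. The median difference of −0.43 was −0.58 with MammU6, −0.24 with snoRNA135, −0.31 within number 2, and −0.56 to −0.26 leaving out 1 array. With the mean of all miRs, which removes the mean shift by construction, it was −0.030. Against Sham in L3-DRG 1 miR passed with a variance trend, and 0 to 1 leaving out 1 array (1 without L3 Sham 1). For the dependence on injury it was 0 to 1 (1 without L3 Sural-SNI 1). The block changed no other call.

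Sign changes occurred in higher miRs. Within number 1 the difference was −0.21 for miR-139-3p, −0.17 for miR-320, −0.20 for the rat assay of miR-351 and −0.016 for miR-126-3p, and within number 2 −2.56 for miR-337-3p, −0.67 for let-7f and −0.30 for the rat assay of miR-1. Leaving out 1 array gave −0.21 (L3 Sham 2) to 2.09 for miR-139-3p, −0.075 (L3 Sham 2) to 0.77 for miR-320, −0.020 (L4 Sham 2) to 0.79 for the rat assay of miR-351, −0.32 (L3 Sham 1) to 1.32 for let-7f, −0.36 (L4 Sham 1) to 2.13 for the rat assay of miR-1 (−0.19 without L4 Tibial-SNI 1) and −0.021 (L3 Sham 2) to 0.43 for miR-126-3p. With Tibial-SNI alone the rat assay of miR-351 was at −0.026 and with Sural-SNI alone miR-130a at −0.017. The cause was not tested.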
